A study of Homo sapiens with 12 samples.

Results

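Genes that build the kinetochore and the mitotic spindle, or that drive and guard mitosis, were examined in 2 RNA-seq experiments. The samples were prostate cancer cells labelled LNCaP or LNCaP-ER. The set holds 48 genes chosen by symbol for their function, of 28008 genes listed in the MUC1-C silencing table and 25435 listed in the MUC1-C overexpression table. All 48 were found under these symbols in both tables. They fall into 6 role groups: 13 genes of the constitutive centromere, 9 of the outer kinetochore, 6 of the spindle checkpoint, 6 mitotic kinase and cyclin B genes, 4 of the chromosomal passenger complex, and 10 kinesins and other spindle proteins.

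The kinetochore is the protein assembly that ties each chromosome to spindle microtubules. It is laid down on centromeric nucleosomes that carry the histone H3 variant CENP-A. The constitutive centromere proteins stay on these nucleosomes through the cell cycle, and in mitosis they receive the outer kinetochore, whose NDC80 complex grips the microtubule end. The spindle checkpoint holds cells before anaphase until every kinetochore is attached, the mitotic kinases start and time these steps, and kinesins and other spindle proteins build the bipolar spindle. Most of these genes are transcribed mainly in G2 and mitosis, through promoter elements named CHR and CCAAT and the factors that bind them, and their RNA is therefore widely used as a readout of dividing cells.

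The silencing experiment used LNCaP-ER/tet-MUC1shRNA cells, of which 3 cultures received vehicle (DMSO at 0.1%) and 3 received doxycycline (DOX) at 500 ng/mL for 7 days. LNCaP-ER cells are LNCaP cells grown in rising doses of the androgen receptor antagonist enzalutamide until they were resistant, and both groups carry the DOX-inducible MUC1 shRNA. No LNCaP-ER library here is from cells given DOX without this shRNA. An effect of DOX itself and an effect of the shRNA therefore cannot be told apart. The overexpression experiment compared cells labelled LNCaP, the line from which LNCaP-ER was derived, with cells of the same label that overexpress MUC1-C (OE). Each group again had 3 libraries. The treatment label of the OE cells reads tetMUC1-C, while the study's methods describe MUC1-C in a vector with a CMV promoter, so which construct they carry is not settled here. The treatment label of the LNCaP control says wild-type while its columns are named vector, so whether it carried an empty vector is not known here, and the titles of the OE samples carry an sh prefix. Cells were cultured in triplicate, and the sources used here do not say whether the cultures were independent, so p-values measure the spread between these libraries.

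Libraries held 28045894 to 45807989 counts for silencing and 13806856 to 19208944 for overexpression. MUC1, the gene targeted by the shRNA, had 26, 10 and 13 counts in the vehicle libraries. In those labelled DOX it had 3, 42 and 8, so replicate 2 held more than any vehicle library, against its label. The fitted log2 fold change of MUC1 was 0.12 (SE 0.93, edgeR adjusted p = 0.935), and without DOX replicate 2 it was -1.83 (edgeR adjusted p = 0.0617). The same library had the fewest genes at 0 counts, 11.2% against 28.0% to 38.1% in the other 5. MUC1 was counted 25 to 31 times in the LNCaP libraries and 9168 to 12622 times in the OE libraries, a log2 fold change of 8.91. As a check of the cell type label, 7 prostate luminal markers summed to 4447 to 4547 CPM (a library's counts scaled to a common total) in the vehicle libraries and 4935 to 5539 CPM in the libraries labelled DOX, but only to 140.3 to 156 CPM in the LNCaP libraries and 56.6 to 61.8 CPM in the OE libraries, where KLK3, KLK2 and FOLH1 were at 0 counts in every library. A leukocyte list, 5 genes long and with PTPRC and CD3E at 0 in every vehicle library, moved from between 5.51 and 7.69 CPM to between 22.5 and 23.3 CPM, and a neuroendocrine list of 5 genes from between 0.456 and 0.814 CPM to between 1.16 and 4.56 CPM in the libraries labelled DOX, while 6 fibroblast markers stood at 9.84 to 16.9 CPM and 7.20 to 16.8 CPM. In the overexpression experiment the LNCaP and OE libraries held 1.72 to 2.39 and 0.579 to 1.21 CPM of the leukocyte list, 29.4 to 32.7 and 23.6 to 31.1 CPM of the neuroendocrine list and 57.2 to 62.7 and 39.2 to 43.4 CPM of the fibroblast list. The luminal level of the LNCaP and OE libraries thus lay far below that of the LNCaP-ER libraries, although both experiments carry an LNCaP label. Whether the cells of both experiments are the same line was not tested. The part of these marker differences in the results below was not tested.

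In the libraries labelled DOX, the mitotic genes were lower as a body. Of the 48 genes, 38 were lower and 1, CENPN, was higher at an adjusted p below 0.05 (quasi-likelihood test of edgeR, Benjamini-Hochberg adjustment over 14683 genes). The same test called 14.5% of all genes lower and 12.8% higher. The median log2 fold change of the 48 was -1.06 with quartiles of -1.27 and -0.76, against -0.02 over all genes tested. By the fitted fold change, 26 genes fell at least 2-fold, and 4 of them, CENPF, NEK2, KIF14 and ASPM, at least 3-fold. The vehicle and DOX libraries did not overlap for 44 genes, all of them lower in DOX, where 23.0% of all genes were separated in that direction. The 9 genes that did not pass the test were CENPI, CENPO, CENPT, ZWINT, CDC20, AURKA, CDK1, CDCA8 and KIF23. Of these 9, 6 had unadjusted p-values under 0.05, as had 5901 of the 14683 genes tested.

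The summed level of the 48 genes was 4247, 3349 and 3298 CPM (TMM-normalised, as all CPM values from here on) in vehicle replicates 1, 2 and 3 and 2616, 1413 and 1976 CPM in the libraries labelled DOX. The groups did not overlap, vehicle replicate 1 was the highest library, and DOX replicate 2, the library with the most MUC1 counts, was the lowest. Relative to the mean of the vehicle libraries, the median gene stood at 0.628, 0.352 and 0.475 in DOX replicates 1, 2 and 3. Without DOX replicate 2, 36 genes were called lower, 1 higher, and the median was -0.82, so the groups differed with and without that library. Leaving out DOX replicate 3 brought the count of lower genes to 25 and leaving out vehicle replicate 1 to 26, while leaving out DOX replicate 1 raised it to 43. In bulk RNA, fewer cells in G2 and mitosis and less of each RNA per such cell cannot be told apart.

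**Figure D1:**
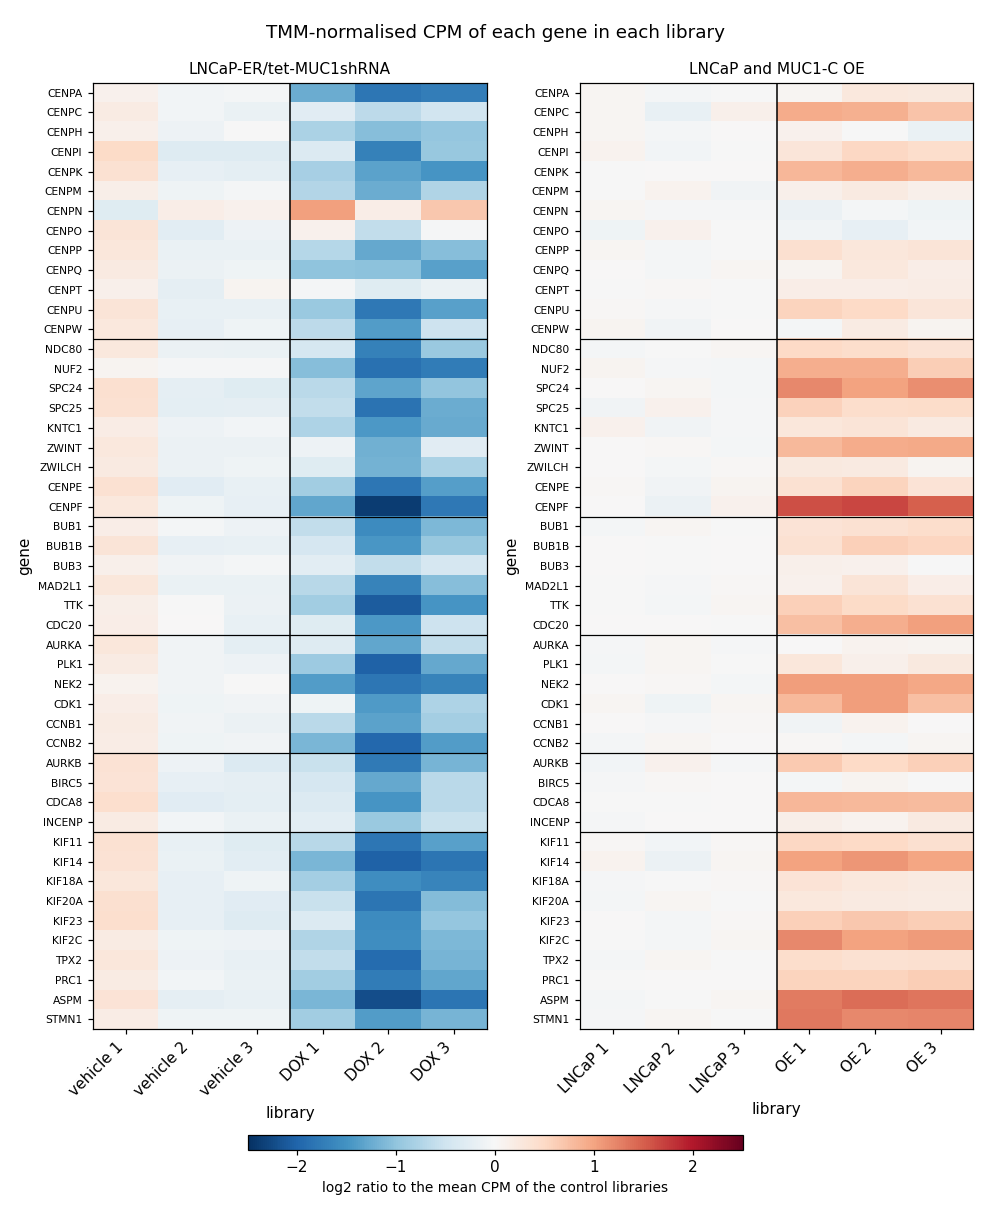
Level of each of the 48 genes (rows, divided by role group) in each of the 12 libraries (columns), as the log2 ratio of its TMM-normalised CPM to the mean of the 3 control libraries of the same experiment. All rows but CENPN, CENPO, CENPT and ZWINT lie below every vehicle library in all 3 DOX columns, most deeply in DOX replicate 2 for most of them, and the OE columns are highest for CENPF, ASPM and STMN1.

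The 48 genes were read for the promoter elements of mitotic genes. RefSeq (GRCh38.p14) gave promoter windows, from 250 bases before to 50 after the start of transcription, for 40 of the 48 genes. CENPH, CENPM, KNTC1, BUB3, TTK, AURKA, BIRC5 and TPX2 had no entry. The CHR core TTTGAA was found on either strand in 23 of the 40 genes (57.5%), against 18.2% of all 27305 genes with a window. CCAAT, the core bound by NF-Y, was found on either strand in 32 genes (80%, against 39.7% of all), at least 2 times in 18 (45%, against 12.9%), and both elements in the windows of 19 genes (47.5%, against 7.26%). The E2F forms TTTCCCGC, TTTGGCGC, TTTCGCGC and TTTGCCGC were found in 4 genes (10%, against 3.99%). Among the 10639 genes with a window that were tested in DOX, the CHR core stood at 13.5% and CCAAT at 43.1%. At least 2 CCAAT stood at 16.3%, CHR with CCAAT at 5.60% and the E2F forms at 6.52% of these genes. A gene counted when any of its windows held the letters. Each motif was counted separately on both strands, so matches that overlap count for each. The median log2 fold change in DOX was -1.15 for the 19 genes with both CHR and CCAAT and -1.05 for the 21 without the combination, and in OE it was 0.58 and 0.43. With the CHR core alone as the criterion it was -1.08 with and -1.06 without in DOX, with CCAAT -1.08 and -0.90, with at least 2 CCAAT -1.01 and -1.09, and with an E2F form -1.23 and -1.06, so the splits differed in direction.

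The 250 bases before the start are shown for the gene with the smallest p in DOX of each role group that has an entry, and last for CENPN, the gene that went the other way. Sequences read 5′ to 3′ on the gene's own strand, with each CHR core, CCAAT or E2F form in capitals (a CCAAT on the other strand reads ATTGG). AURKB has 2 and STMN1 has 3 windows, of which the first in the order of the RefSeq table is shown. The other windows of STMN1 hold no CCAAT, and 1 of them holds an E2F form.
CENPA, chr2:26785806-26786055, strand +: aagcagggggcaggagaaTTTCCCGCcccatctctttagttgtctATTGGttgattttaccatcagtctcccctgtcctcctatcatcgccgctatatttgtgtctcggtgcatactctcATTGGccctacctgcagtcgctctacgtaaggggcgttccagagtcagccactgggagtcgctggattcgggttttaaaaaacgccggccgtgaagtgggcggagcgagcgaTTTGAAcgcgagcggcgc
NUF2, chr1:163321704-163321953, strand +: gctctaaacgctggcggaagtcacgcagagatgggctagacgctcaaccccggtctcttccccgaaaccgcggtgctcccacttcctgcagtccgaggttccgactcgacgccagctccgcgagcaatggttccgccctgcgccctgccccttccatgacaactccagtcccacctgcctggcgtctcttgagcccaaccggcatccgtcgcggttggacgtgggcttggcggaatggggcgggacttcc
BUB1, chr2:110678064-110678313, strand -: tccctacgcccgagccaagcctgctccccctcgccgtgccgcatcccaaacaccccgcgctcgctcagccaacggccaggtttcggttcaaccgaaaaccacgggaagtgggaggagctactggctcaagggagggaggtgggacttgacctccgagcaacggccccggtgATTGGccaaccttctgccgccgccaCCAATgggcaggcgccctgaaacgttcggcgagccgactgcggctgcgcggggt
NEK2, chr1:211675622-211675871, strand -: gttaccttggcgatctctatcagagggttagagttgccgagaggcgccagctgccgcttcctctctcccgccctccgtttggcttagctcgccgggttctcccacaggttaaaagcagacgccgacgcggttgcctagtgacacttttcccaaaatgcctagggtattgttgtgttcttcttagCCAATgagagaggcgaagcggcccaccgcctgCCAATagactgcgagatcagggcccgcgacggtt
AURKB, chr17:8210226-8210475, strand -: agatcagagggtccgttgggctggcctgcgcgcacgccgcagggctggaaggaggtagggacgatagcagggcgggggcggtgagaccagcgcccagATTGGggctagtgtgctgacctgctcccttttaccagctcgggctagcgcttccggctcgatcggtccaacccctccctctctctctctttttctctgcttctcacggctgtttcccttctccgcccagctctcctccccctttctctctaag
STMN1, chr1:25906420-25906669, strand -: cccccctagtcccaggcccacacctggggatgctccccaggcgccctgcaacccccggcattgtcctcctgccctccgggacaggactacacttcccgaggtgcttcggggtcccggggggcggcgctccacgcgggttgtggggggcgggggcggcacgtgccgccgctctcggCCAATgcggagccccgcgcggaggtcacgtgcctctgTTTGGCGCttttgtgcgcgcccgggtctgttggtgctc
CENPN, chr16:81006964-81007213, strand +: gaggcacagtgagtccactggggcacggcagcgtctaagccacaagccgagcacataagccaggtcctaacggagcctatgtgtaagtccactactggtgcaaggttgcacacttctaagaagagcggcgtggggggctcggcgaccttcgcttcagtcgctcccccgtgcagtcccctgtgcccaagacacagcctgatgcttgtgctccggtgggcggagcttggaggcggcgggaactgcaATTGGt
CENPA carries a CHR core that begins 18 bases before its start, with CCAAT boxes that begin 130 and 205 bases and an E2F form that begins 232 bases before it. BUB1 has CCAAT boxes that begin 54 and 79 bases before the start, and NEK2 at 34 and 66. AURKB has 1 CCAAT box, at 153, and STMN1 has 1 at 75 and the E2F form TTTGGCGC at 38. NUF2 has none of these letters before its start, and its CHR core lies in the 50 bases after it. CENPN has a CCAAT box that begins 6 bases before its start and a CHR core in the 50 bases after it.

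Among the constitutive centromere genes, 9 of 13 fell in DOX, 1 rose and 3 did not pass the test, with a median log2 fold change of -0.89. CENPA encodes the centromeric histone H3 variant. CENPA was at 12.8, 11.4 and 11.5 CPM in vehicle replicates 1, 2 and 3 and at 5.03, 3.40 and 3.58 CPM in the libraries labelled DOX, so that the highest DOX library lay far below the lowest vehicle library. Its log2 fold change was -1.57 (SE 0.20, edgeR adjusted p = 0.00120). CENPH, which links the inner and outer kinetochore, moved within narrow groups. CENPH was at 41.2, 34.7 and 37.7 CPM in vehicle replicates 1, 2 and 3 and at 21.9, 18.0 and 19.4 CPM in the libraries labelled DOX, and its log2 fold change was -0.94 (SE 0.12, edgeR adjusted p = 0.00134). Its partners in the same subcomplex, CENPK and CENPM, fell by 1.19 and 0.89 on the log2 scale, while CENPI, the fourth subunit, had -0.89 and an edgeR adjusted p of 0.0765. Of the CENP-O subcomplex, CENPU, CENPQ and CENPP fell by 1.32, 1.12 and 1.00, but CENPO itself had -0.15 (95% interval -0.55 to 0.26, edgeR adjusted p = 0.630). Of the histone-fold pair CENP-T and CENP-W, CENPW fell by 0.80 and CENPT had -0.17 (95% interval -0.44 to 0.11, edgeR adjusted p = 0.408). CENPC, the large scaffold that binds the CENP-A nucleosome, fell by 0.46, the smallest change called in this group. Its call held in 4 of the 15 alternatives and was lost with DESeq2 (adjusted p = 0.0640), median-of-ratios factors (edgeR adjusted p = 0.0566), library size only (edgeR adjusted p = 0.0874) and 5 of the 6 fits that left out 1 library.

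CENPN, which reads the CENP-A nucleosome directly, was the exception. CENPN was at 141, 195 and 187 CPM in vehicle replicates 1, 2 and 3 and at 353, 195 and 277 CPM in the libraries labelled DOX. Replicates 1 and 3 labelled DOX lay above every vehicle library, whereas replicate 2 lay within the vehicle range. The log2 fold change was 0.66 (SE 0.21, edgeR adjusted p = 0.0445), and it kept a positive sign in every one of the 15 alternatives, from 0.43 without DOX replicate 1 (edgeR adjusted p = 0.147) to 0.89 without DOX replicate 2 (edgeR adjusted p = 0.00378) among fits to counts. It did not pass the threshold in 7 of the 15. CENPN lies at chr16:81006498-81033114 (GRCh38, GENCODE 29), where 457 of its exonic bases (12.8%) are shared with CMC2 on the opposite strand. The library kit kept strand, but whether the counting used it is not given in the sources used here. The opposite strand also holds AC092718.8 (261 shared exonic bases, 7.3%) and AC092718.2 (168 bases, 4.7%). CMC2 itself had a log2 fold change of -0.26 in DOX (edgeR adjusted p = 0.0925). The part of shared reads in the CENPN value was not tested.

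The outer kinetochore genes fell in 8 of 9 cases, with a median log2 fold change of -1.13. NUF2 is a subunit of the NDC80 complex. NUF2 was at 66.9, 62.5 and 62.4 CPM in vehicle replicates 1, 2 and 3 and at 30.6, 17.4 and 19.1 CPM in the libraries labelled DOX. Its vehicle libraries lay within a few CPM of each other and all DOX libraries lay below them, with a log2 fold change of -1.51 (SE 0.20, edgeR adjusted p = 0.00136). The other NDC80 subunits SPC25, SPC24 and NDC80 fell by 1.15, 0.97 and 0.92. CENPF, a large coiled-coil protein of the fibrous corona, had the largest fall of all 48 genes. CENPF was at 220.3, 169 and 158 CPM in vehicle replicates 1, 2 and 3 and at 74.2, 35.2 and 52.8 CPM in the libraries labelled DOX. The log2 fold change was -1.75 (SE 0.25, edgeR adjusted p = 0.00193), and it was -1.49 without DOX replicate 2. CENPE, the kinetochore kinesin, fell by 1.30. Of the genes for the complex that brings dynein to the kinetochore, KNTC1 and ZWILCH fell by 1.13 and 0.71. ZWINT, which bridges the outer kinetochore to that complex, had -0.46 (edgeR adjusted p = 0.199) and overlapped between groups.

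Of the spindle checkpoint genes, 5 of 6 fell, with a median of -0.96. TTK encodes the kinase MPS1, which starts checkpoint signalling at unattached kinetochores. TTK was at 74.6, 67.2 and 61.2 CPM in vehicle replicates 1, 2 and 3 and at 36.8, 16.0 and 24.5 CPM in the libraries labelled DOX, and DOX replicate 2 held the lowest value. Its log2 fold change was -1.39 (SE 0.25, edgeR adjusted p = 0.00528). BUB1 encodes a kinase that recruits the other checkpoint proteins. BUB1 was at 87.2, 75 and 71.2 CPM in vehicle replicates 1, 2 and 3 and at 50.6, 26.1 and 35.9 CPM in the libraries labelled DOX, without overlap and with a log2 fold change of -1.05 (SE 0.21, edgeR adjusted p = 0.00776). MAD2L1 and BUB1B, which encode parts of the inhibitor of the anaphase-promoting complex, fell by 1.08 and 0.88, and BUB3 by 0.43, the smallest change called in the group. CDC20, the activator that the checkpoint holds back, had -0.68 (edgeR adjusted p = 0.0699), although all DOX libraries lay below all vehicle libraries.

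Among the mitotic kinase and cyclin B genes, 4 of 6 fell, with a median of -1.13. NEK2, a centrosomal kinase, had the smallest p of all 48 genes. NEK2 was at 44.3, 39.3 and 41.6 CPM in vehicle replicates 1, 2 and 3 and at 15.8, 11.9 and 13.2 CPM in the libraries labelled DOX. Neither group spread by more than a few CPM, and the log2 fold change was -1.62 (SE 0.13, edgeR adjusted p = 2.95e-04). CCNB2 was at 102, 83.8 and 84.2 CPM in vehicle replicates 1, 2 and 3 and at 40.7, 23.2 and 34.0 CPM in the libraries labelled DOX. CCNB2 and CCNB1 encode the cyclins that activate CDK1, and CCNB2 changed by -1.46 (SE 0.19, edgeR adjusted p = 0.00140) on the log2 scale and CCNB1 by -0.93. PLK1, the kinase of centrosome maturation and mitotic entry, fell by 1.33. CDK1 itself had -0.67 (edgeR adjusted p = 0.0978), with DOX replicate 1 at 267 CPM next to vehicle replicate 2 at 268, and AURKA had -0.69 (edgeR adjusted p = 0.0543). The difference between CDK1 and its cyclins was not tested.

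The chromosomal passenger complex corrects faulty attachments through Aurora B. Of its 4 genes, 3 fell, and the median of -0.75 was the nearest to 0 of the 6 groups. AURKB was at 36.7, 26.3 and 22.6 CPM in vehicle replicates 1, 2 and 3 and at 19.5, 8.35 and 12.8 CPM in the libraries labelled DOX. AURKB, the kinase, was lowest in DOX replicate 2, and its log2 fold change was -1.08 (SE 0.29, edgeR adjusted p = 0.0255). INCENP was at 75.1, 62.8 and 58.8 CPM in vehicle replicates 1, 2 and 3 and at 54.4, 34.4 and 44.4 CPM in the libraries labelled DOX. INCENP, the scaffold of the complex, changed by -0.56 (SE 0.17, edgeR adjusted p = 0.0359), the smallest change of the group. BIRC5, which encodes survivin, fell by 0.74, and CDCA8, which encodes borealin, had -0.76 (edgeR adjusted p = 0.0727). The calls of BIRC5 and INCENP held in only 5 and 6 of the 15 alternatives.

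The kinesins and spindle proteins fell in 9 of 10 cases and had the lowest median, -1.17. STMN1 encodes stathmin, which destabilises microtubules. STMN1 was at 185, 149.7 and 151 CPM in vehicle replicates 1, 2 and 3 and at 89.0, 61.4 and 72.0 CPM in the libraries labelled DOX, and its log2 fold change was -1.13 (SE 0.15, edgeR adjusted p = 0.00143). KIF14 encodes a kinesin of the central spindle and cytokinesis. KIF14 was at 61.8, 42.7 and 39.9 CPM in vehicle replicates 1, 2 and 3 and at 21.9, 11.8 and 13.5 CPM in the libraries labelled DOX. Every DOX library lay below every vehicle library, and the log2 fold change was -1.61 (SE 0.25, edgeR adjusted p = 0.00287). ASPM, a spindle pole protein, fell by 1.66, and KIF18A, PRC1 and KIF11 by 1.31, 1.26 and 1.21. TPX2, KIF2C and KIF20A, a spindle assembly factor, a microtubule-depolymerising kinesin and a kinesin of cytokinesis, fell by 1.14, 1.10 and 1.06. KIF23 had -0.87 (edgeR adjusted p = 0.0590), with no overlap between groups.

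**Figure D2:**
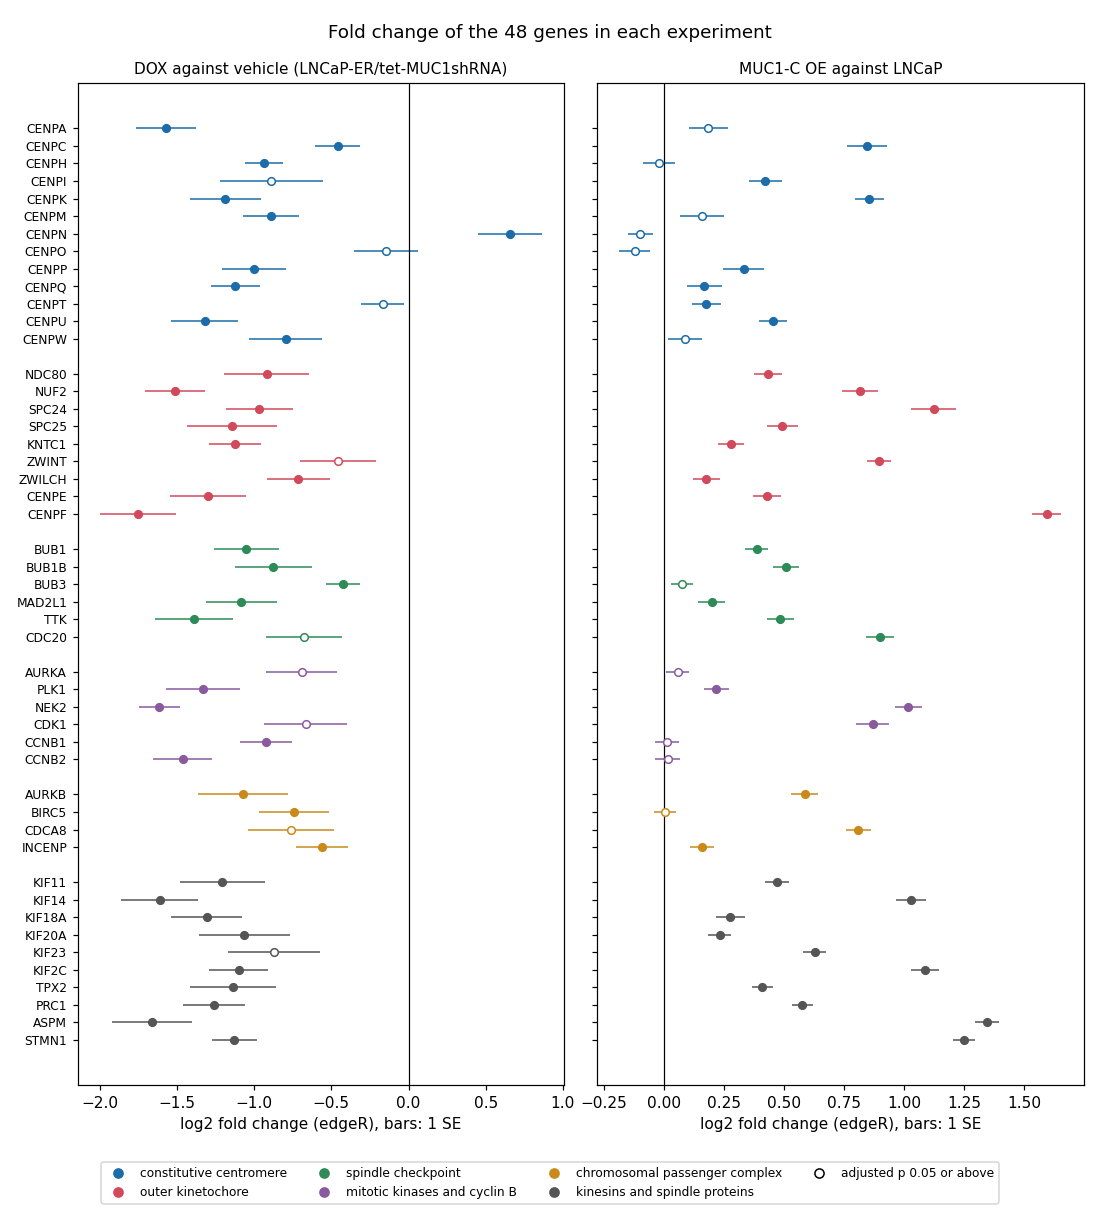
Fitted log2 fold change of each of the 48 genes with 1 standard error (bars), in DOX against vehicle (left) and MUC1-C OE against LNCaP (right, on its own scale), coloured by role group, with open symbols where the adjusted p was 0.05 or above. CENPN alone lies to the right of 0 with a filled symbol on the left, and no filled symbol lies left of 0 on the right.

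The deposited TPM values, which divide by gene length, allow levels to be compared between genes. In the vehicle libraries, CCNB1 was the highest of the 48 genes on the TPM scale at 94.5, 64.8 and 55.6 TPM, followed by CDK1 at 74.1, 51.9 and 46.4 and CCNB2 at 56.1, 39.0 and 34.7. The ranges of neighbours in this order overlapped. The lowest was CENPP at 2.87, 1.78 and 1.58 TPM. CENPN ranked 15 of the 48 by mean TPM in vehicle, at 19.5, 22.8 and 19.4 TPM, and 3 in DOX, at 60.0, 41.9 and 40.4 TPM. RN7SK held 24.6% to 37.7% of each library on the TPM scale but 1.04% to 3.08% of the counts, less of it in DOX, and on TPM the median of all genes moved up by 0.45 on the log2(TPM + 1) scale. There the median of the 48 genes was -0.50, with 21 lower and 1 higher by limma with Benjamini-Hochberg adjustment, and CENPC, CENPO, CENPT, ZWINT and BUB3 turned positive without passing the threshold. Relative to the median of all genes, the set was lower on both scales.

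The genes around this set were read from 7 lists of 91 further mitotic genes. In DOX, 56 of the 91 fell and 1 rose, with a median of -0.75. The lists with the highest share of calls were these: 12 of 15 G2/M entry genes, 14 of 18 other spindle, motor and cytokinesis genes, 6 of 8 condensin genes and 6 of 8 cohesin genes fell. CKS1B, a CDK adaptor, fell from 22.1 ± 0.205 to 11.2 ± 1.35 CPM (SD, n = 3), ECT2, the exchange factor that opens cytokinesis, from 175 ± 17.4 to 75 ± 16.4 CPM (SD, n = 3), NCAPG2, a condensin II subunit, from 109 ± 15.3 to 54.2 ± 12.0 CPM (SD, n = 3), and STAG1, a cohesin subunit, from 51.3 ± 1.95 to 29.6 ± 2.54 CPM (SD, n = 3). FOXM1 and MYBL2, transcription factors of G2/M promoters, fell by 1.19 and 1.09, and LIN9, of the complex that binds CHR elements, by 1.00. The single gene that rose was NCAPD3, a condensin II subunit, from 169 ± 15.1 to 297 ± 57.8 CPM (SD, n = 3), with a fitted log2 change of 0.81 (edgeR adjusted p = 0.00447), while its condensin II partner NCAPG2 had -1.01.

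Fewer genes were called in the remaining lists. Of 9 other centromere genes, 4 fell, with a median of -0.55. Of 13 other outer kinetochore and checkpoint genes, 6 fell, led by KNL1, the scaffold that receives BUB1, from 66.9 ± 10.1 to 25 ± 9.12 CPM (SD, n = 3). Of 20 genes of the anaphase-promoting complex and its regulators, 8 fell, led by PTTG1, the securin gene, from 59.7 ± 6.67 to 24.1 ± 6.71 CPM (SD, n = 3). PTTG1, ESPL1, UBE2C and FBXO5 had log2 fold changes from -1.30 to -0.90, and the other 16 lay at -0.59 or above. For comparison, of 20 genes of origin licensing and the replicative helicase, which prepare and carry out DNA replication, 2 fell (CDC45 and CDT1). The median of the 20 was -0.40, and 10 had unadjusted p-values under 0.05. Of all 14683 genes tested, 14.5% were called lower and 5901 had an unadjusted p under 0.05. CDT1, a licensing factor, fell from 32.7 ± 1.06 to 21.8 ± 3.0 CPM (SD, n = 3).

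**Figure D3:**
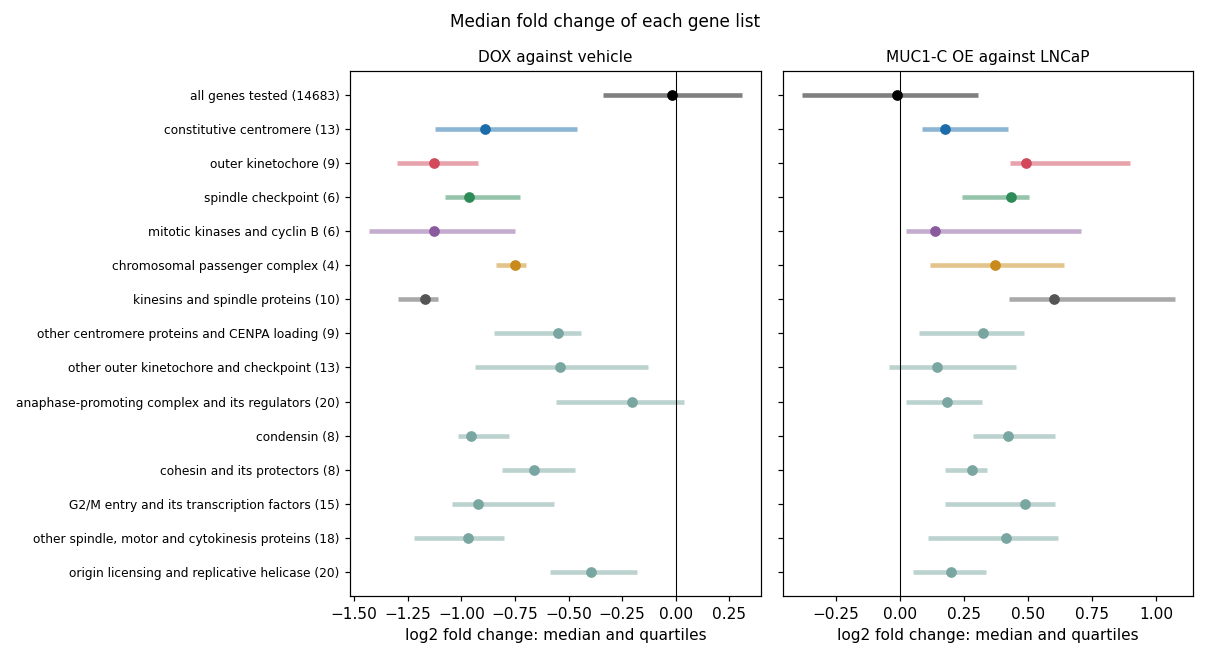
Median (points) and quartiles (bars) of the log2 fold change of each list, with the number of genes listed in brackets, in DOX against vehicle (left) and MUC1-C OE against LNCaP (right); all genes tested are at the top, where 14683 and 13836 genes were fitted. In DOX the kinesins and spindle proteins lie lowest at -1.17 and origin licensing genes at -0.40, and in OE the kinesins and spindle proteins lie highest at 0.60.

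In the overexpression experiment most of the 48 genes were higher in OE. Of the 48 genes, 37 were higher and none was lower in OE with an adjusted p under 0.05 (edgeR, over 13836 genes, of which 33.2% were called higher and 34.1% lower), and 11 did not pass the test. At an unadjusted p under 0.05 and with DESeq2, 0 were lower as well. The median log2 fold change was 0.43 with quartiles of 0.17 and 0.82, against -0.01 over all genes. The groups did not overlap for 39 genes in the upward direction and for 1, CENPN, in the downward direction, where 34.4% and 35.9% of all genes were so separated. The summed level was 5417, 5392 and 5477 CPM in LNCaP replicates 1, 2 and 3 and 7883, 8033 and 7726 CPM in the OE libraries. The libraries of each group lay close together and the groups far apart. With library size only in place of TMM, the median of all genes moved by -0.16, 27 genes were higher and 6 (CENPH, CENPN, CENPO, CCNB1, CCNB2 and BIRC5) were lower, while the median of the 48 stayed above it at 0.27. The fitted values of CENPW, BUB3 and AURKA, which were not called, also turned negative there.

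The kinesins and spindle proteins rose in 10 of 10 cases, with a median of 0.60. ASPM had the smallest p of all 48 genes in this experiment. ASPM was at 109, 112 and 118 CPM in LNCaP replicates 1, 2 and 3 and at 277, 298 and 285 CPM in the OE libraries, and its log2 fold change was 1.34 (SE 0.05, edgeR adjusted p = 2.41e-13). STMN1 was at 249, 263 and 252 CPM in LNCaP replicates 1, 2 and 3 and at 637, 588 and 594 CPM in the OE libraries. STMN1 changed by 1.25 (SE 0.05, edgeR adjusted p = 3.10e-13), and for both genes the lowest OE library was more than 2-fold above the highest LNCaP library. KIF2C and KIF14 rose by 1.09 and 1.03 on the log2 scale, KIF23, PRC1, KIF11 and TPX2 by 0.63, 0.58, 0.47 and 0.41, and KIF18A and KIF20A by 0.28 and 0.23.

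The outer kinetochore genes also rose in all 9 cases, with a median of 0.49. CENPF was at 186, 167 and 199.6 CPM in LNCaP replicates 1, 2 and 3 and at 566, 583 and 521 CPM in the OE libraries. CENPF showed the largest rise of the 48, 1.59 (SE 0.06, edgeR adjusted p = 2.20e-12), about 3.02-fold, and was also the gene with the largest fall in DOX. ZWINT was at 156, 160.1 and 152 CPM in LNCaP replicates 1, 2 and 3 and at 272, 299 and 301 CPM in the OE libraries. ZWINT, which bridges the outer kinetochore to the dynein-recruiting complex, changed by 0.90 (SE 0.05, edgeR adjusted p = 5.41e-11), although it was not called in DOX. Within the NDC80 complex the changes were uneven, with 1.12 for SPC24, 0.82 for NUF2, 0.49 for SPC25 and 0.43 for NDC80. SPC24 was also the least abundant of them in CPM, at 9.06, 9.40 and 8.73 CPM in LNCaP and 20.7, 18.2 and 20.2 CPM in OE. CENPE, KNTC1 and ZWILCH rose by 0.43, 0.28 and 0.18.

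Of the spindle checkpoint genes, 5 of 6 rose, with a median of 0.43. CDC20 was at 95.3, 95.4 and 94.1 CPM in LNCaP replicates 1, 2 and 3 and at 161, 178 and 192 CPM in the OE libraries. CDC20 had the largest change of the group, 0.90 (SE 0.06, edgeR adjusted p = 3.98e-10). BUB1B was at 107, 106 and 107 CPM in LNCaP replicates 1, 2 and 3 and at 139.7, 161 and 156 CPM in the OE libraries, so BUB1B, which encodes the checkpoint protein BUBR1, changed by 0.51 (SE 0.05, edgeR adjusted p = 2.33e-07) without overlap. TTK, BUB1 and MAD2L1 rose by 0.48, 0.39 and 0.20. BUB3 had 0.07 (95% interval -0.02 to 0.17, edgeR adjusted p = 0.177).

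The mitotic kinase and cyclin B genes were split. NEK2 was at 44.4, 44.9 and 42.4 CPM in LNCaP replicates 1, 2 and 3 and at 90.4, 91.0 and 85.4 CPM in the OE libraries, and its log2 fold change was 1.02 (SE 0.06, edgeR adjusted p = 4.93e-11). CDK1 was at 167, 151 and 167 CPM in LNCaP replicates 1, 2 and 3 and at 281, 331 and 273 CPM in the OE libraries, and CDK1 changed by 0.87 (SE 0.07, edgeR adjusted p = 3.43e-08). PLK1 rose by 0.22. The cyclin B genes had intervals close around 0: CCNB1 was at 283, 275 and 288 CPM in LNCaP replicates 1, 2 and 3 and at 267, 300.2 and 286 CPM in the OE libraries, with a log2 fold change of 0.01 (95% interval -0.09 to 0.11). CCNB2 had 0.01 (95% interval -0.09 to 0.12) and AURKA 0.06 (95% interval -0.04 to 0.15), and the edgeR adjusted p of these 3 genes was 0.317 or more. With library size only the values of these 3 genes were -0.14, -0.14 and -0.10, above the all-gene median of -0.16. CDK1 was called in OE and not in DOX, and CCNB1 and CCNB2 in DOX and not in OE.

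Of the chromosomal passenger complex, CDCA8, AURKB and INCENP rose and BIRC5 did not. CDCA8 was at 52.6, 52.9 and 53.2 CPM in LNCaP replicates 1, 2 and 3 and at 93.6, 93.3 and 91.2 CPM in the OE libraries, and its log2 fold change was 0.81 (SE 0.05, edgeR adjusted p = 3.37e-10). AURKB was at 85.5, 96.3 and 87.7 CPM in LNCaP replicates 1, 2 and 3 and at 141, 126 and 137 CPM in the OE libraries, a change of 0.59 (SE 0.06, edgeR adjusted p = 7.98e-08). INCENP rose by 0.16. BIRC5 was among the most abundant of the 48 genes in CPM: BIRC5 was at 302, 313 and 309 CPM in LNCaP replicates 1, 2 and 3 and at 296, 325 and 306 CPM in the OE libraries, with a log2 fold change of 0.00 (95% interval -0.09 to 0.10, edgeR adjusted p = 0.942).

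Of the constitutive centromere genes, 7 of 13 rose, with none called lower and a median of 0.18. CENPK was at 35.6, 35.9 and 36.0 CPM in LNCaP replicates 1, 2 and 3 and at 63.9, 67.7 and 63.1 CPM in the OE libraries, and its log2 fold change was 0.86 (SE 0.06, edgeR adjusted p = 9.70e-10). CENPC was at 27.2, 23.2 and 28.7 CPM in LNCaP replicates 1, 2 and 3 and at 49.9, 49.1 and 43.5 CPM in the OE libraries, and CENPC changed by 0.85 (SE 0.08, edgeR adjusted p = 7.29e-08), against a fall of 0.46 in DOX. CENPU, CENPI, CENPP, CENPT and CENPQ rose by 0.45, 0.42, 0.33, 0.18 and 0.17. CENPQ passed narrowly (edgeR adjusted p = 0.0497), and its call held in 2 of the 12 alternatives, with an adjusted p of up to 0.877 with library size only. CENPA had 0.18 (edgeR adjusted p = 0.0508), with every OE library above every LNCaP library, and CENPM and CENPW had 0.16 and 0.08. CENPH, CENPN and CENPO were the only genes of the 48 with a negative fold change, -0.02, -0.10 and -0.12, and none passed the threshold.

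**Figure D4:**
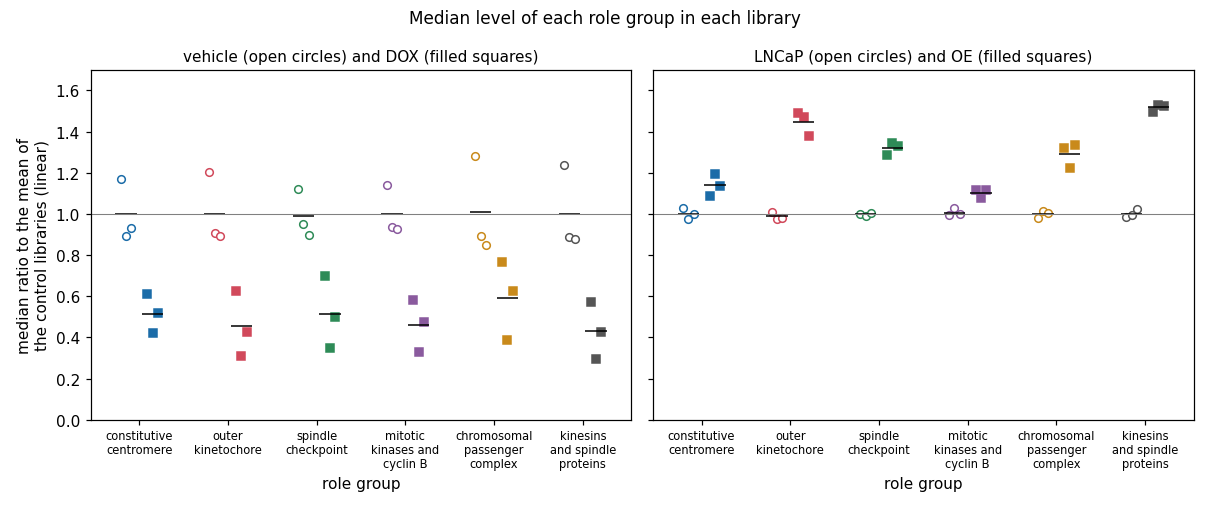
Median over the genes of each role group of the ratio of a library's CPM to the mean of the control libraries (linear scale), 1 symbol for each library (open circles, controls; filled squares, DOX or OE) with the mean of 3 libraries as a line. DOX libraries lie between 0.293 and 0.768 and below all vehicle libraries in each group, and OE libraries lie between 1.08 and 1.53 and above all LNCaP libraries.

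In OE the further mitotic lists moved mostly up, with 63 of 90 genes higher and 9 lower (CENPS was not matched in this table). Of all genes tested, 33.2% were called higher and 34.1% lower. All 8 condensin genes rose, led by NCAPD2, from 238 ± 3.20 to 364 ± 9.29 CPM (SD, n = 3), and 7 of 8 cohesin genes, led by SGO2, which protects centromeric cohesin, from 58.9 ± 4.81 to 86.2 ± 8.48 CPM (SD, n = 3). Of the G2/M entry genes, 12 of 15 rose, led by LIN9, from 33.7 ± 0.951 to 87.3 ± 3.56 CPM (SD, n = 3), with a fitted log2 change of 1.37, while FOXM1 fell, from 197 ± 10.1 to 153 ± 15.2 CPM (SD, n = 3), by 0.36. FOXM1 was called lower in both experiments. Of the other spindle genes, 13 of 18 rose, led by DLGAP5, a spindle assembly factor, from 140.3 ± 5.26 to 284 ± 15.2 CPM (SD, n = 3), and CKAP2 and HMMR fell, by 0.47 and 0.34. Of the other centromere genes, 6 of 8 rose, with a median of 0.32, and of the other kinetochore and checkpoint genes 7 of 13, led by NSL1, from 69.2 ± 0.999 to 118 ± 5.20 CPM (SD, n = 3). The anaphase-promoting complex and its regulators held 10 of 20 higher, led by FBXO5, the inhibitor EMI1, from 70.4 ± 0.866 to 121 ± 3.21 CPM (SD, n = 3). The other genes that fell were CENPB, MIS12, TRIP13, ANAPC13, CDC23 and CDCA5, by 0.17 to 0.31. Of the origin licensing genes, 13 of 20 rose and 3 fell, with a median of 0.20, led by ORC1, from 43.5 ± 0.717 to 99.8 ± 7.80 CPM (SD, n = 3).

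Side by side, 30 of the 48 genes (62.5%) were lower in DOX and higher in OE, against 930 (7.96%) of the 11686 genes tested in both experiments. They included 8 of the 9 outer kinetochore genes and 9 of the 10 kinesins and spindle proteins, but 5 of the 13 constitutive centromere genes and 2 of the 6 kinase and cyclin genes. For 11 of the 30, which do not include CENPC and CENPQ, both calls held in every alternative on counts. Lower in DOX without a call in OE were CENPA, CENPH, CENPM, CENPW, BUB3, CCNB1, CCNB2 and BIRC5. Higher in OE without a call in DOX were CENPI, CENPT, ZWINT, CDC20, CDK1, CDCA8 and KIF23. CENPO and AURKA were called in neither, and none of the 48 was called in the same direction in both. Across the 48 genes, Pearson's r between the log2 fold changes was -0.43 and Spearman's rho -0.38, against -0.12 and -0.20 over all 11686 genes, a description over genes that share libraries and are not independent. The experiments differ in cell label (LNCaP-ER or LNCaP), luminal marker level, table and depth, and the difference between their effects was not tested.

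**Figure D5:**
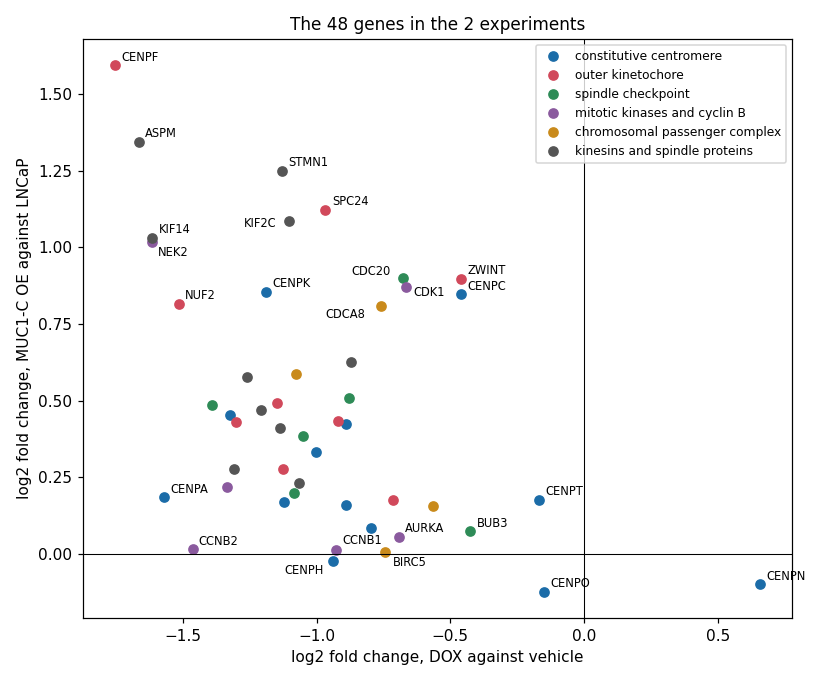
Log2 fold change of each of the 48 genes in DOX against vehicle (x axis) and in MUC1-C OE against LNCaP (y axis), coloured by role group, with some genes named. Most genes lie in the upper left quadrant, CENPF at its corner with -1.75 and 1.59, CCNB1, CCNB2, BIRC5 and CENPH on the line at 0 of the y axis, and CENPN by itself at lower right with 0.66 and -0.10.

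Counting limits apply to named genes. In GENCODE 29, 13 of the 48 genes share exonic bases with another protein-coding gene, among them CENPO with ADCY3 (27.0% of its exonic bases, opposite strand), CENPP with IPPK (38.0%, opposite strand) and PRC1 with the gene model AC068831.7 (57.6%, same strand). In RefSeq, 14 of the 48 have a pseudogene named after them: CENPC, CENPI, CENPN, CENPP, CENPU, BUB1, BUB3, MAD2L1, AURKA, AURKB, NEK2, CCNB2, CDC20 and STMN1. How shared reads were assigned is not given in the sources used here, so the counts of these genes are uncertain to that extent.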

How the data were processed

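Human cells labelled LNCaP or LNCaP-ER were profiled by RNA-seq in 12 libraries, 3 in each of 4 groups, from stranded mRNA libraries. The authors aligned the reads (the submitters' processing notes name STAR, DESeq2 and the builds GRCh38 and hg38) and deposited whole-number counts per gene symbol without normalization, in 1 table per experiment. A TPM table of the silencing libraries was deposited as well, with values scaled to the same total in each library. The strand setting of the counting, the annotation and the treatment of multimapped reads are not given in the sources used here. The overexpression table held 12 further columns of per-sample values, which were not used.

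Counts of each experiment were fitted with edgeR 4.0.16 in R 4.3.3 (TMM, filterByExpr, robust quasi-likelihood test, all 6 libraries of that experiment, no covariate), with Benjamini-Hochberg adjustment over all genes tested and a threshold of 0.05. A standard error is the log2 fold change divided by the square root of F. The 95% intervals use the normal quantile with this standard error. They are narrower than the few degrees of freedom of the test would give. CPM are TMM-normalised unless stated otherwise. Deposited TPM were tested with limma 3.58.1 on log2(TPM + 1) for genes with at least 1 TPM in 3 libraries. Alternatives were DESeq2 1.42.0, other scalings and filters, the replicate number as a block, and each library left out. The fits were also run on simulated counts with known changes, and the outcome is not reported here. Each gene was drawn independently there. The simulation therefore cannot show how calls behave when many genes shift together in a library.

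Total counts ranged from 13806856 to 45807989 per library. Replicates differed by more than counting noise, and each library counted as 1 replicate.

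The 48 genes, the role groups, the further lists and the tests were chosen with earlier results of these data known. Values in every library are given for the 2 lowest p-values of every role group and experiment and for a gene called against the direction of most, and the gene with the smallest p is named for each further list but 1, where it is not reported here. CCNB1, BIRC5 and SPC24 in OE, and list genes beyond the smallest p, were chosen after their values were seen. Promoter windows, gene models and pseudogene names came from RefSeq (GRCh38.p14) and GENCODE 29.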

Additional observations from a re-analysis of the deposited data

How the results depend on the processing

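The median of the 48 genes kept its sign under all 15 alternatives in DOX and all 12 in OE. In DOX, the 38 lower genes became 41 with DESeq2, 37 with median-of-ratios factors, 35 with library size only, 38 with at least 10 counts in every library, 25 without a filter, 21 on log2(TPM + 1), 21 on log2(TPM + 0.1) and 3 on TPM without a filter, and 25 (without DOX replicate 3) to 43 (without DOX replicate 1) with each library left out. The median of the 48 genes lay between -1.28 (without DOX replicate 1) and -0.82 (without DOX replicate 2) with a library left out, and was -0.50, -0.54 and -0.50 in the 3 TPM fits, where the median of all genes stood at 0.45, 0.52 and 0.18. On counts that median was 0.38 with DESeq2 and 0.36 without a filter. The call of CENPN was lost (0 higher) without a filter, under the replicate block and in 5 of the 6 fits that left out 1 library (0 to 1 higher). Lower genes of the 7 further lists became 15, 15 and 0 in the TPM fits, where higher ones became 12, 12 and 5, with 3 higher on library size only and 1 to 6 with a library left out. Of the 39 genes called in DOX, 20 were called in each of the 12 alternatives on counts. Over all 15 alternatives, the calls of CENPC, BIRC5, INCENP, NDC80, ZWILCH and BUB1B held least often, in 4, 5, 6, 7, 7 and 7. Signs turned in the 3 TPM fits for CENPC (0.0777, 0.0955, 0.0777), CENPO (0.33, 0.39, 0.33), CENPT (0.34, 0.39, 0.34), ZWINT (0.0357, 0.0376, 0.0357) and BUB3 (0.12, 0.13, 0.12), and for CENPO with a library left out (-0.30 to 0.0703). MUC1 in DOX, 0.12 with all libraries, was -0.62 under the replicate block and -1.83 to 0.62 with a library left out, lowest without DOX replicate 2. In OE, 36 to 38 genes were higher except with library size only (27), and 35 to 38 with a library left out; 27 of the 37 called genes were called in each of the 12 alternatives. Lower genes were 6 with library size only, 2 (CENPN and CENPO) with at least 10 counts in every library and 0 to 1 with a library left out. The median of the 48 moved to 0.27 and 0.40 in these 2 settings, beyond its spread between libraries of 0.03, and 19 genes of the further lists were lower with library size only. Library size only turned the sign of CENPW (-0.0692), BUB3 (-0.0809), AURKA (-0.0983), CCNB1 (-0.14), CCNB2 (-0.14), BIRC5 (-0.15), ECT2 (-0.12), NCAPG2 (-0.0329) and PTTG1 (-0.0552). At least 10 counts in every library turned CCNB1 (-0.0181), CCNB2 (-0.0145) and BIRC5 (-0.0251). With a library left out, signs turned within -0.0953 to 0.06003 for CENPH, -0.0184 to 0.0549 for CCNB1, -0.0108 to 0.0581 for CCNB2 and -0.0215 to 0.0337 for BIRC5. The cause of these shifts was not tested. Whether replicate numbers pair the libraries is not known here. Over all genes, the deviations of same-numbered libraries correlated by -0.07 to 0.09 in the silencing and -0.15 to -0.03 in the overexpression experiment. Not every library correlated best with its own number, but correlations over so few libraries cannot exclude pairing. Under the replicate block 45 genes were lower in DOX and 36 higher in OE. With 3 libraries a group, a missed call does not show that a gene did not differ.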
